A study of Mus musculus with 12 samples.

Results

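Lipase inhibitors under isoproterenol were followed in mature white adipocytes by setting the 3 libraries from cells given inhibitors and isoproterenol (Lip+ISO) against the 3 libraries from cells given isoproterenol alone (ISO). These 6 libraries were taken by their labels from 12 RNA sequencing libraries, and no measured value was used to choose them. The other libraries were 3 from cells given vehicle (DMSO) and 3 from cells given inhibitors alone (Lip). All cells were floated adipocytes from the epididymal white fat (eWAT) of lean male C57/BL6J mice, whose age the labels do not give. They were freed with collagenase, set in a hydrogel at 50000 cells per well and cultured for 2 days, then given lipase inhibitors or not and afterwards isoproterenol, a β-adrenergic agonist, or not for 3 h. The study's methods name Atglistatin, which blocks adipose triglyceride lipase (ATGL), and CAY10499, which blocks hormone-sensitive lipase (HSL), as the inhibitors. They list monoglyceride lipase (MGL) as a further target of CAY10499. The labels and the study's text give ISO as the stimulus and are followed here, although 1 of its legends gives SR-3420 for these cells. Both groups compared carry ISO, so the difference between them is that of the inhibitors in stimulated cells, and each inhibitor on its own was not measured.

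In fat cells, catecholamines bind β-adrenergic receptors, raise cyclic AMP and activate protein kinase A, which sets lipolysis going: ATGL and HSL cut stored triglyceride into fatty acids and glycerol. Protein kinase A also reaches the nucleus directly through the CREB family of transcription factors. Fatty acids are fuel, and they are also ligands of the PPAR nuclear receptors, whose targets handle fatty acids. The comparison asks which part of the transcript response to stimulation changes when fatty acid release is blocked.

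The inhibitors changed transcripts in both directions. At a threshold of 0.05 on the adjusted p, 621 of 13543 genes tested (4.59%) were lower with the inhibitors and 590 (4.36%) were higher. The median log2 fold change over all tested genes was -0.01. A smaller set also differed by 1 log2 unit or more, and these are named called genes here: 162 were called lower (1.2%) and 107 called higher (0.79%). Among the passing genes, 25 were lower and 20 higher by 2 log2 units or more. Groups that did not overlap at all in their CPM were found for 1828 genes with Lip+ISO lower (13.5%) and 1614 with Lip+ISO higher (11.9%), and they included 162 of the 162 genes called lower and 106 of the 107 called higher. Adjusted p values are from edgeR's quasi-likelihood test, two-sided, with Benjamini-Hochberg adjustment over all tested genes, levels are counts scaled to library size (CPM), and ± is the standard error of a log2 fold change unless stated otherwise. The replicates are independent experiments by the methods, and the labels number the libraries of each group without saying which experiment or animals each came from. With the replicate number as a block over all 12 libraries, 1458 genes were lower and 1149 higher.

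Depth was 22864094 to 43707557 counts in the 6 libraries, so that 3 counts in a library correspond to 0.0686 to 0.133 CPM over all 12. Genes with counts numbered 15501 to 15774 in ISO and 16356 to 17079 in Lip+ISO libraries, without overlap. They numbered 15141 to 15297 in DMSO and 15634 to 16244 in Lip. The cause of this difference was not tested. The adipocyte marker list was high throughout, with a summed level of 35700 to 47900 CPM in ISO and 31800 to 50400 CPM in Lip+ISO, whereas none of the 10 epididymis markers was high enough to be tested. Marker lists of other cell types were measured in the same way. The summed level of 12 fibroblast markers was 942 to 1270 CPM in ISO and 578 to 816 CPM in Lip+ISO, and 4 of the 12 passed as lower. Endothelial markers summed to 313 to 568 CPM in ISO and 108 to 313 CPM in Lip+ISO, and 1 of 12 passed as lower. The fibroblast and endothelial shares were 33.3% and 8.33%, against 4.59% of all tested genes. With the replicate block 7 fibroblast and 9 endothelial markers passed as lower, against 1458 of all 13543 tested genes in that fit. Macrophage markers summed to 131 to 189 CPM in ISO and 91.0 to 143 CPM in Lip+ISO, and mesothelial markers to 75.3 to 90.2 CPM in ISO and 48.9 to 70.5 CPM in Lip+ISO, with 0 of 13 and 0 of 9 passing by edgeR. At an unadjusted p under 0.05, 4 macrophage and 1 mesothelial markers were lower, while 2 and 0 passed by DESeq2 and 1 and 0 by limma-voom. Mural markers summed to 782 to 949 CPM and 797 to 860 CPM, with 0 of 8 passing by edgeR, 2 lower at an unadjusted p under 0.05, 1 by DESeq2 and 0 by limma-voom. The haemoglobin genes Hba-a1, Hba-a2 and Hbb-b1 had 0 counts in every library. The lymphocyte list had 2 of 10 members at a testable level, with summed levels of 2.62 to 4.14 CPM in ISO and 1.79 to 3.27 CPM in Lip+ISO, and the 1 testable eosinophil marker was at 3.66 to 10.2 CPM in ISO and 2.14 to 10.2 CPM in Lip+ISO. In DMSO the summed levels were 473 to 840 CPM for fibroblast, 139 to 263 CPM for endothelial and 67.5 to 84.5 CPM for macrophage markers. They were 29.8 to 74.7 CPM for mesothelial and 834 to 923 CPM for mural markers. Every ISO library thus lay above every DMSO library for all of these lists but the mural one. The eosinophil marker was at 0 to 0.0316 CPM in DMSO. In bulk libraries, a change in the number of cells of a type and in RNA per cell cannot be told apart.

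**Figure D1:**
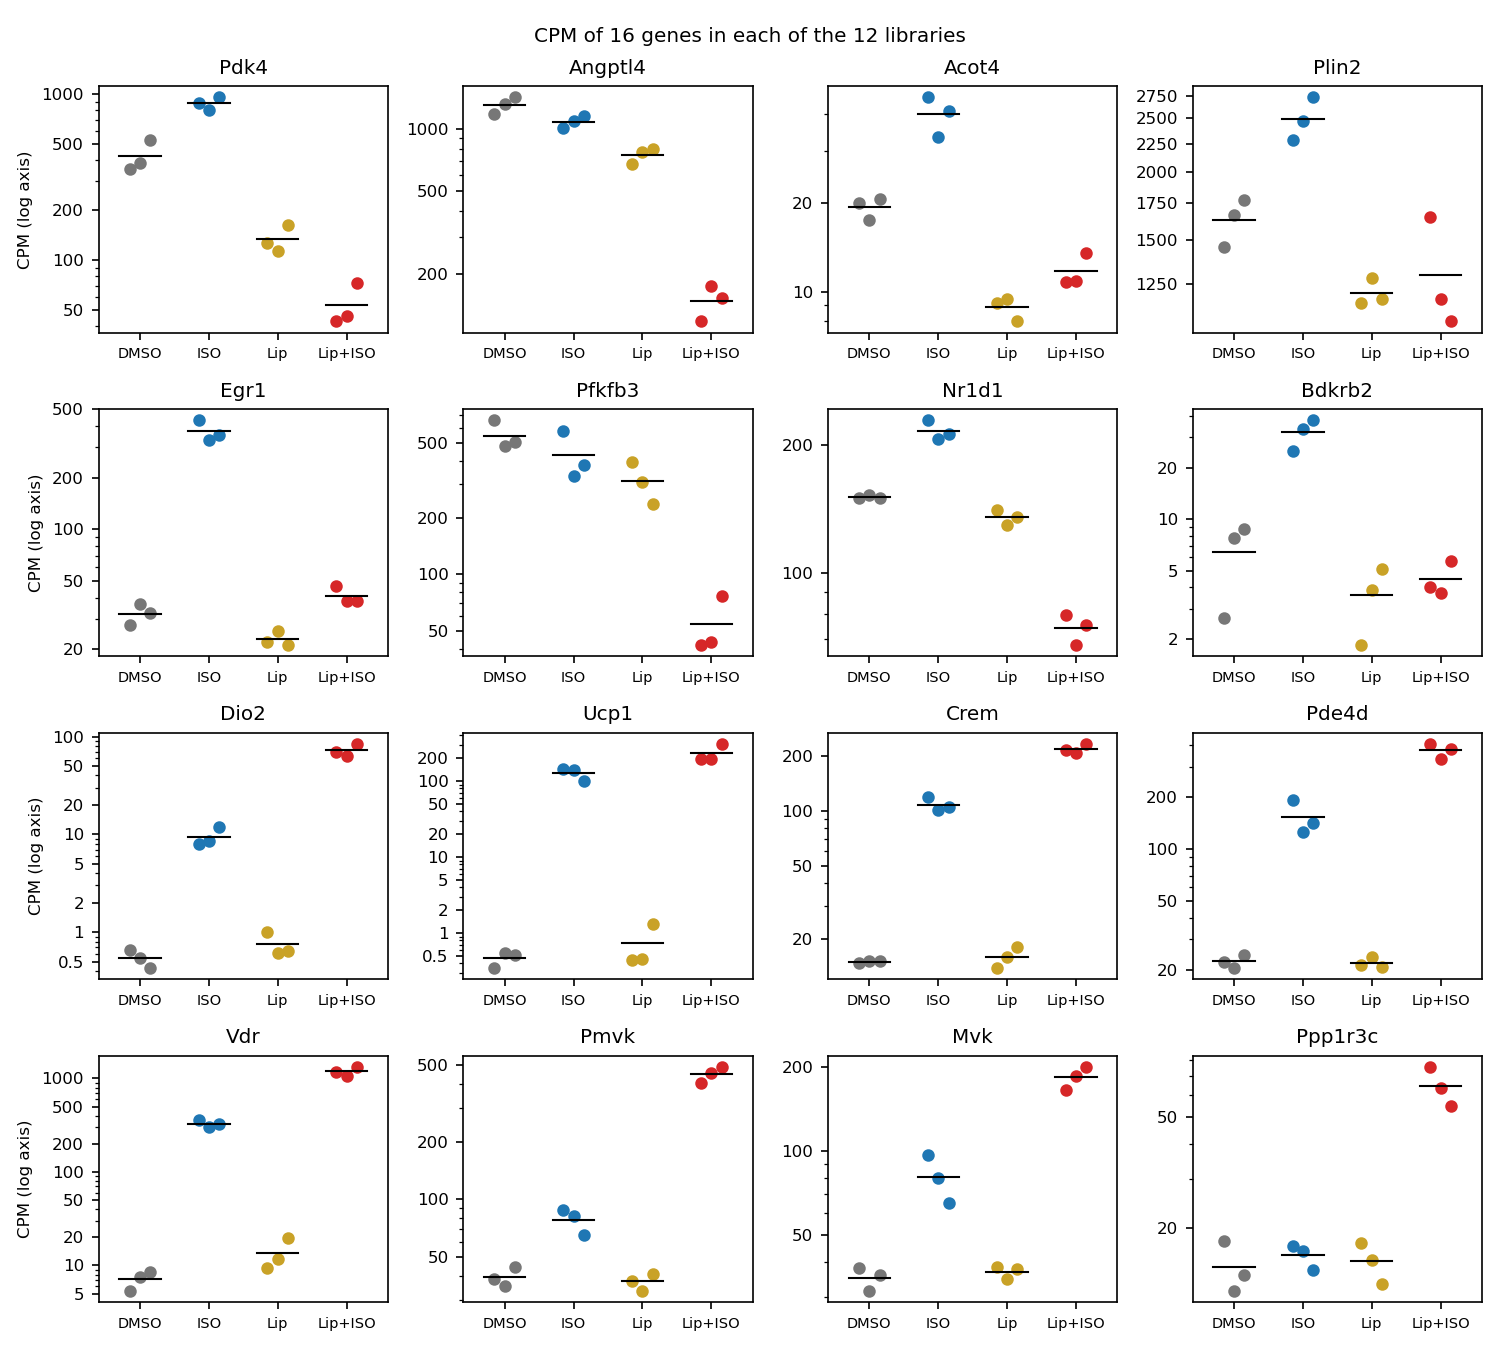
CPM on a log axis of 16 genes in each of the 12 libraries, with 1 point per library and a line at the mean of each group of 3. The upper 8 genes were lower in every Lip+ISO library than in any ISO library, and the lower 8 were higher.

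Genes that handle fatty acids held some of the largest falls. Pdk4, the kinase that shuts off pyruvate dehydrogenase when fat is burned (NM_013743, mm9 chromosome 6, 5433351 to 5446278, minus strand), led them. Pdk4 was at 883, 799.6 and 956 CPM in ISO and at 42.65, 45.8 and 72.5 CPM in Lip+ISO. Every Lip+ISO library was also below the DMSO libraries (352, 383 and 530.4 CPM) and the Lip libraries (126, 113 and 162 CPM), and the level was 16.4-fold lower than in ISO (log2 fold change -4.04 ± 0.23, adjusted p = 8.02e-07). Angptl4 was at 1003, 1088 and 1143 CPM in ISO and at 118, 175 and 153 CPM in Lip+ISO. This gene (NM_020581, mm9 chromosome 17, 33911845 to 33918520, minus strand) encodes an inhibitor of lipoprotein lipase, and its level fell 7.25-fold (log2 fold change -2.86 ± 0.14, adjusted p = 2.70e-07), again to below the Lip libraries at 678, 769 and 794 CPM.

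Genes of the acyl-CoA thioesterases, which split acyl-CoA into the free acid and coenzyme A, fell to a lesser extent. Acot4 was at 45.6, 33.5 and 40.9 CPM in ISO and at 10.8, 10.9 and 13.6 CPM in Lip+ISO (log2 fold change -1.77 ± 0.14, adjusted p = 1.12e-05). Acot3 was at 15.55, 14.8 and 24.5 CPM in ISO and at 5.90, 5.00 and 8.58 CPM in Lip+ISO (log2 fold change -1.49 ± 0.26, adjusted p = 0.00289). Acot2 fell by less (-0.54, adjusted p = 0.00244). These genes are close paralogs, and reads may have been split between them in counting. The Acot4 libraries of ISO and Lip+ISO did not overlap, nor did those of Acot3.

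Plin2, which coats lipid droplets, was at 2288, 2469 and 2733 CPM in ISO and 1657, 1171 and 1067 CPM in Lip+ISO (log2 fold change -0.94 ± 0.15, adjusted p = 0.00162), with Lip+ISO replicate 1 the highest library of its group. Hilpda, a droplet protein that inhibits ATGL, fell as well (-0.86, adjusted p = 0.00575), although its Lip+ISO libraries at 164, 136 and 149 CPM stayed above the DMSO libraries at 21.9, 22.03 and 28.6 CPM. G0s2, another ATGL inhibitor, had a log2 fold change of -1.75, adjusted p = 0.0102. Its groups did not overlap (106, 167 and 136 CPM in ISO, 21.6, 71.9 and 28.2 CPM in Lip+ISO), and without Lip+ISO replicate 3 the adjusted p was 0.052. The adjusted p was 0.0538 without replicate 1 and 0.137 without replicate 3. Pck1, of glyceroneogenesis, also fell (-1.11, adjusted p = 0.0174), with adjusted p of 0.0553, 0.0508 and 0.059 without ISO replicate 1, Lip+ISO replicate 1 and Lip+ISO replicate 2. Its adjusted p was 0.138 without replicate 2. Fgf21, a fasting hormone, was at 14.8, 23.7 and 37.8 CPM in ISO and 8.85, 7.38 and 9.095 CPM in Lip+ISO. Its fall (log2 fold change -1.59 ± 0.45, adjusted p = 0.0463) no longer passed in 9 of 15 fits without 1 library or 1 replicate number, with adjusted p up to 0.293, reached without replicate 2, and with a log2 fold change of -1.2 without ISO replicate 3.

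As a list, 10 of 43 PPAR targets passed as lower (23.3%) and 1 as higher (2.33%), against 4.59% and 4.36% of all tested genes, with a list median of -0.12. The falls therefore sat in a minority of members. This list was chosen with earlier results of these data known, so its share is no independent test. Of 30 genes of fatty acid oxidation and ketogenesis, 3 passed as lower, all of them the thioesterases just named, and 1 as higher, with a median of 0.01. That 1 was Cpt1a, which admits long-chain fatty acids to mitochondria (log2 fold change 0.29 ± 0.08, adjusted p = 0.0429), and it no longer passed in 13 of the 15 leave-out fits, with adjusted p of 0.054 to 0.271 in those. Pdp2, a phosphatase that opposes Pdk4 on pyruvate dehydrogenase, had a log2 fold change of 0.87, adjusted p = 0.0275 and no longer passed without ISO replicate 2, ISO replicate 3 or Lip+ISO replicate 3, with adjusted p of 0.121, 0.085 and 0.106. Its adjusted p was 0.103 without replicate 2 and 0.175 without replicate 3. The respiratory chain list had 0 of 82 members passing by edgeR in either direction, with a median of 0.06. At an unadjusted p under 0.05, 2 were higher, while 1 passed by DESeq2 and 0 by limma-voom.

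**Figure D2:**
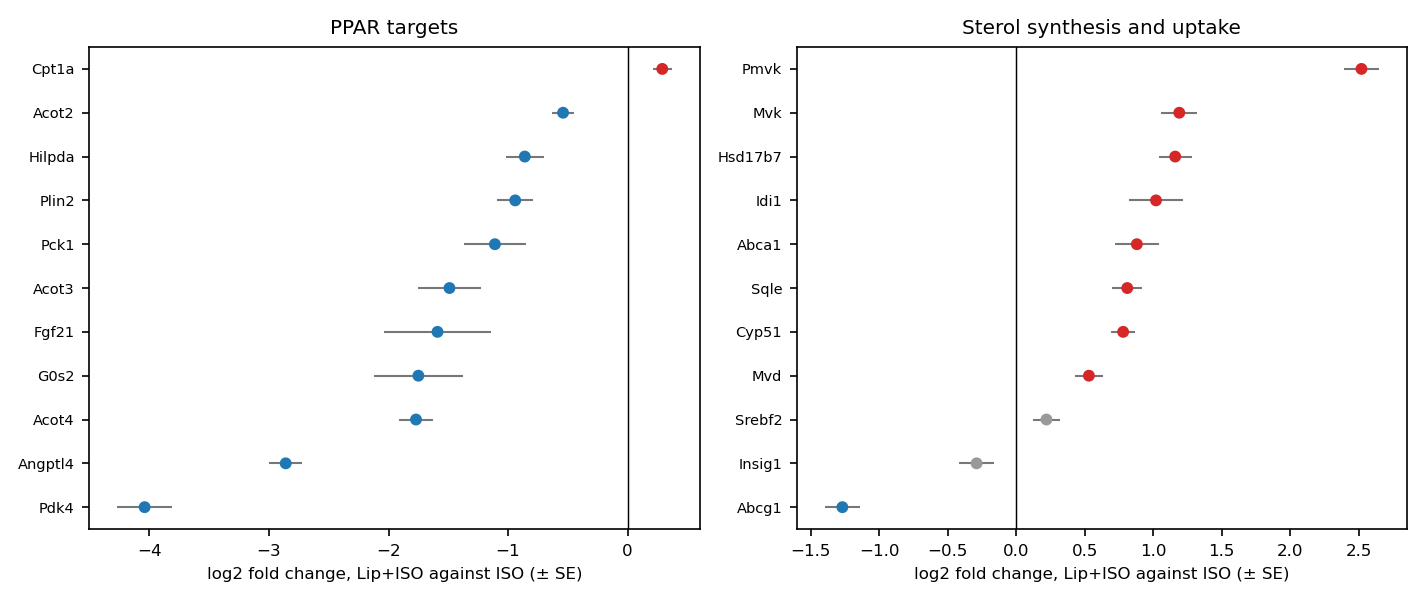
Log2 fold change of Lip+ISO against ISO for the members named in the text of 2 lists, 11 PPAR targets (left) and 11 genes of sterol synthesis, uptake and export (right), with bars of 1 standard error. Blue points passed as lower, red points as higher and grey points did not pass: 10 PPAR targets were lower and 8 sterol genes were higher. Most were named because they passed, so the plot does not show the lists as a whole.

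The receptors themselves moved apart. Ppara, the PPAR of fatty acid oxidation, was at 20.04, 19.7 and 20.45 CPM in ISO and 5.01, 6.89 and 10.8 CPM in Lip+ISO (log2 fold change -1.40 ± 0.20, adjusted p = 0.000915). Pparg, the PPAR that maintains adipocytes, was at 266, 226.7 and 246 CPM in ISO and 338, 349 and 395 CPM in Lip+ISO, a rise (log2 fold change 0.55 ± 0.08, adjusted p = 0.00138). Its DMSO libraries, at 354, 321 and 338.5 CPM, lay above every ISO library and overlapped those of Lip+ISO. The rise was thus from a level in ISO below that of DMSO. In neither gene did the ISO and Lip+ISO groups overlap. The coactivator gene Ppargc1b fell (-1.75, adjusted p = 0.00163), while its relative Ppargc1a did not pass and was at 94.9, 89.95 and 140.1 CPM in ISO and 136, 117 and 141 CPM in Lip+ISO (0.28, adjusted p = 0.346). In the list of nuclear receptors and cofactors 6 of 33 members were lower (18.2%) and 3 higher (9.09%), with a median of -0.21. Over all tested genes the shares were 4.59% and 4.36%.

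Immediate early genes, which respond fast to growth factor and stress signals, had the largest share of members lower among the pathway lists with 10 or more tested members. Of 37 members, 13 passed as lower (35.1%) and 2 as higher (5.41%), against 4.59% and 4.36% of all tested genes. The list median was -0.21, and this list was chosen with earlier results of these data known. Egr1 was at 431, 329.7 and 354 CPM in ISO and at 47.1, 38.1 and 38.1 CPM in Lip+ISO. This zinc finger factor was thus 9.04-fold lower (log2 fold change -3.18 ± 0.14, adjusted p = 2.25e-07), and its Lip+ISO libraries lay just above those of DMSO, at 27.6, 36.9 and 32.5 CPM. Fos was at 58.35, 36.45 and 48.04 CPM in ISO and at 18.8, 17.05 and 15.8 CPM in Lip+ISO (log2 fold change -1.46 ± 0.17, adjusted p = 0.000169). Myc was at 62.6, 66.4 and 68.5 CPM in ISO and at 22.1, 29.3 and 29.1 CPM in Lip+ISO (log2 fold change -1.29 ± 0.11, adjusted p = 1.83e-05). Fos and Myc code for transcription factors, and in both the groups did not overlap. Spry4, a feedback inhibitor of ERK signalling, fell (-1.53, adjusted p = 1.30e-06), but Dusp6, an ERK phosphatase, did not pass (-0.40, adjusted p = 0.0983) but did with the replicate block, at an adjusted p of 0.0131.

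Not every fast response fell. The NR4A orphan receptors, also immediate early genes, had 0 of 3 members passing by edgeR, with log2 fold changes of 0.43 to 0.80, while 2 were higher at an unadjusted p under 0.05, 1 by limma-voom and 0 by DESeq2. Nr4a1 was at 454, 281 and 348 CPM in ISO and at 706, 387 and 370.4 CPM in Lip+ISO. Nr4a3 was at 960.5, 660.5 and 803 CPM in ISO and at 1508, 1167 and 1548 CPM in Lip+ISO (log2 fold change 0.80 ± 0.29, adjusted p = 0.115). With the replicate block Nr4a3 passed, at an adjusted p of 0.0206. The Nr4a1 groups overlapped, and the Nr4a3 groups did not.

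Among EGF family genes 2 of 14 passed as lower (14.3%) and 0 as higher, against 4.59% and 4.36% of all tested genes. Ereg, a ligand of the EGF receptor, was at 9.29, 8.48 and 7.83 CPM in ISO and 2.75, 1.74 and 1.51 CPM in Lip+ISO (log2 fold change -2.09 ± 0.50, adjusted p = 0.0205), and its adjusted p lay between 0.0509 and 0.116 in the fits without ISO replicate 2, ISO replicate 3, Lip+ISO replicate 2, Lip+ISO replicate 3, replicate 1 or replicate 3. Egfr, the receptor itself, fell (-0.77, adjusted p = 0.019), with adjusted p of 0.0851 without ISO replicate 3 and 0.0578 without Lip+ISO replicate 1. Its adjusted p was 0.07 without replicate 1 and 0.189 without replicate 3. Areg, a second ligand, had Lip+ISO libraries at 2.47, 2.30 and 1.07 CPM and ISO libraries at 3.13, 2.67 and 3.03 CPM and did not pass (-0.59, adjusted p = 0.572).

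The other genes among the 12 largest falls had varied roles. Bdkrb2 was at 24.97, 33.65 and 37.7 CPM in ISO and at 4.00, 3.71 and 5.68 CPM in Lip+ISO (log2 fold change -2.85 ± 0.41, adjusted p = 0.00101), and it encodes the bradykinin B2 receptor. Rgs16 was at 95.04, 84.9 and 74.9 CPM in ISO and at 14.8, 15.9 and 11.1 CPM in Lip+ISO (log2 fold change -2.61 ± 0.25, adjusted p = 4.10e-05), and it encodes a brake on G proteins. Arc was at 160.2, 132 and 149 CPM in ISO and at 36.2, 19.2 and 18.9 CPM in Lip+ISO (log2 fold change -2.57 ± 0.24, adjusted p = 4.10e-05), an immediate early gene best known from neurons. In these the Lip+ISO libraries were all below the ISO libraries by a wide margin.

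Ccrn4l, which encodes the circadian protein nocturnin, was at 283, 224 and 269 CPM in ISO and 39.7, 37.6 and 43.3 CPM in Lip+ISO, and at 96.9, 104 and 125 CPM in DMSO (log2 fold change -2.68 ± 0.14, adjusted p = 2.80e-07). Has2, a hyaluronan synthase, was at 8.19, 7.28 and 10.5 CPM in ISO and 2.14, 1.89 and 1.11 CPM in Lip+ISO (log2 fold change -2.33 ± 0.25, adjusted p = 0.000101). Bcar3, an adaptor of adhesion signalling, was at 184, 130 and 119.8 CPM in ISO and 33.2, 31.4 and 21.8 CPM in Lip+ISO (log2 fold change -2.33 ± 0.20, adjusted p = 2.05e-05). The other 2 of the 12 largest falls were Tchhl1 (-2.48, adjusted p = 0.00244) and Hs3st1, a heparan sulphate sulphotransferase (-2.30, adjusted p = 0.00335). Ptger2, a prostaglandin E2 receptor, fell too (-2.24, adjusted p = 0.000799), at 4.71, 5.36 and 5.36 CPM in ISO and 1.17, 1.48 and 0.596 CPM in Lip+ISO.

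Of 22 genes of glycolysis and glucose uptake 4 were lower (18.2%) and 1 higher (4.55%), against 4.59% and 4.36% of all tested genes. Pfkfb3 makes fructose 2,6-bisphosphate, the strongest activator of phosphofructokinase. Pfkfb3 was at 574, 332 and 379 CPM in ISO and at 42.2, 43.3 and 76.7 CPM in Lip+ISO. It was the third of the 12 largest falls (log2 fold change -2.98 ± 0.28, adjusted p = 4.18e-05), and the Lip+ISO libraries were also below those of DMSO at 656, 478 and 501 CPM. Slc2a1, the glucose transporter GLUT1, was at 269.8, 328 and 345 CPM in ISO and 185, 148 and 137 CPM in Lip+ISO (log2 fold change -1.0 ± 0.13, adjusted p = 0.000428). Slc16a1, a monocarboxylate transporter, fell by less (-0.37, adjusted p = 0.0108), with an adjusted p of 0.0698 when only the ISO and Lip+ISO libraries were fitted. Hk2, which traps glucose as glucose 6-phosphate, did not pass (-0.21, adjusted p = 0.431).

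HIF targets went both ways, with 5 of 19 lower (26.3%) and 3 higher (15.8%), against 4.59% and 4.36% of all tested genes. With the replicate block 8 HIF targets were lower and 3 higher, against 1458 and 1149 of all 13543 tested genes in that fit. Vegfa, the main angiogenic factor, had a log2 fold change of -0.66, adjusted p = 0.0299 and was at 373, 328 and 439 CPM in ISO and 327, 189.8 and 205 CPM in Lip+ISO. Without ISO replicate 1, ISO replicate 3, Lip+ISO replicate 2 or Lip+ISO replicate 3 its adjusted p was 0.0566, 0.119, 0.0948 and 0.119. It was 0.173 without replicate 2 and 0.364 without replicate 3, where the log2 fold change was -0.44. Mxi1, a Myc antagonist, rose (1.13, adjusted p = 4.08e-05), at 33.4, 25.7 and 26.2 CPM in ISO and 65.3, 60.6 and 60.1 CPM in Lip+ISO.

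Of 19 clock and clock output genes 2 were lower (10.5%) and 1 higher (5.26%), against 4.59% and 4.36% of all tested genes, with a median of -0.22. With the replicate block 5 were lower and 2 higher, against 1458 and 1149 of all 13543 tested genes in that fit. Nr1d1 was at 229, 207 and 212 CPM in ISO and at 79.6, 67.75 and 75.3 CPM in Lip+ISO. This gene encodes REV-ERBα, the repressor in the core clock loop, and fell 2.91-fold (log2 fold change -1.54 ± 0.08, adjusted p = 2.70e-07) to below every DMSO library (149.9, 152 and 149.8 CPM). Cry2, a repressor in the same clock, rose (log2 fold change 1.13 ± 0.14, adjusted p = 0.000306), at 107, 83.4 and 97.4 CPM in ISO and 258, 167 and 205 CPM in Lip+ISO. Arntl, which encodes BMAL1, and Per1 did not pass (0.19, adjusted p = 0.398 and -0.14, adjusted p = 0.547).

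Genes of the cyclic AMP response changed in both directions. Dio2, the deiodinase that makes active thyroid hormone (NM_010050, mm9 chromosome 12, 91962992 to 91976878, minus strand), rose the most among the called genes that the 5 CPM minimum of the naming rule kept. Dio2 was at 8.06, 8.55 and 11.8 CPM in ISO and at 68.97, 63.5 and 84.4 CPM in Lip+ISO. It was 7.65-fold higher than in ISO (log2 fold change 2.94 ± 0.18, adjusted p = 1.25e-06), while DMSO libraries were at 0.663, 0.545 and 0.431 CPM and Lip libraries at 0.996, 0.612 and 0.637 CPM. Crem was at 119.5, 100.3 and 104 CPM in ISO and at 214, 206 and 232 CPM in Lip+ISO (log2 fold change 1.01 ± 0.10, adjusted p = 4.10e-05), and this gene encodes activators and repressors of the CREB family. Pde4d was at 192, 125 and 141 CPM in ISO and at 407, 333 and 381 CPM in Lip+ISO (log2 fold change 1.29 ± 0.14, adjusted p = 9.72e-05), and its product degrades cyclic AMP. The groups did not overlap in any of these 3 genes.

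Pde10a, another phosphodiesterase, rose by a like amount (1.04, adjusted p = 0.0016). Pde4b had a negative fold change that did not pass (-0.96, adjusted p = 0.202) but did with the replicate block, at an adjusted p of 0.0171. Ucp1, the uncoupling protein of thermogenic fat, was at 142, 141 and 100.3 CPM in ISO and 192, 192 and 309.9 CPM in Lip+ISO (log2 fold change 0.86 ± 0.23, adjusted p = 0.0355). Its adjusted p was 0.132 by DESeq2, and in the 8 leave-out fits in which it no longer passed it was 0.0506 to 0.14, among them those without ISO replicate 1, ISO replicate 2, ISO replicate 3, Lip+ISO replicate 3, DMSO replicate 1 and DMSO replicate 3, with a log2 fold change of 0.6 without Lip+ISO replicate 3. Zfp516, an activator of thermogenic genes, rose (0.93, adjusted p = 0.00204). Irs2, an adaptor of the insulin receptor, and Il6 did not pass (0.47, adjusted p = 0.207 and 0.53, adjusted p = 0.203), and Irs2 did with the replicate block, at an adjusted p of 0.00258. The list of cyclic AMP and CREB targets had 4 of 36 members lower (11.1%) and 6 higher (16.7%), with a median of 0.12. The thermogenic list had 3 of 24 lower (12.5%) and 3 higher (12.5%). Over all tested genes the shares were 4.59% and 4.36%.

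For 2 genes that were lower in ISO than in DMSO, Adrb3 and Lep, the difference between Lip+ISO and ISO did not pass. Adrb3 was at 36.25, 21.7 and 28.3 CPM in ISO and at 23.3, 27.7 and 37.2 CPM in Lip+ISO and at 161, 152 and 236 CPM in DMSO (0.04, adjusted p = 0.938). Lep was at 58.5, 37.3 and 28.2 CPM in ISO and at 37.8, 48.8 and 40.7 CPM in Lip+ISO and at 187, 133 and 122 CPM in DMSO (0.04, adjusted p = 0.943). Adrb3 is the main β-adrenergic receptor of mouse fat, and Lep encodes leptin. In both the ISO and Lip+ISO groups overlapped, and the sign of the fold change turned in fits without 1 library.

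Of 25 genes of sterol synthesis, uptake and export, 14 rose (56%) and 1 fell (4%), against 4.36% and 4.59% of all tested genes. This list too was chosen with earlier results of these data known. The list median was 0.53, and 22 members had a positive fold change. Pmvk, Mvk and Hsd17b7 led them. Pmvk was at 87.7, 81.9 and 65.5 CPM in ISO and at 404, 454 and 488 CPM in Lip+ISO. It encodes phosphomevalonate kinase, an enzyme on the way from mevalonate to the isoprenoids, and the gene (NM_026784, mm9 chromosome 3, 89263040 to 89272931, plus strand) was 5.72-fold higher (log2 fold change 2.52 ± 0.13, adjusted p = 2.80e-07). Mvk was at 96.85, 79.8 and 65.04 CPM in ISO and at 165, 185 and 199.5 CPM in Lip+ISO (log2 fold change 1.19 ± 0.13, adjusted p = 0.000104), and it encodes mevalonate kinase, which acts just before. The groups did not overlap in either, and in both the DMSO and Lip libraries were lower than ISO.

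Pmvk, Mvk, Hsd17b7 and Abcg1 were named by rule, and the other members named in these paragraphs were chosen after their values were seen. Mvd and Idi1, of the next steps, rose (0.53, adjusted p = 0.00436 and 1.02, adjusted p = 0.00739), as did the later enzymes Sqle (0.81, adjusted p = 0.000668), Cyp51 (0.78, adjusted p = 0.000217) and Hsd17b7 (1.16, adjusted p = 8.53e-05). Srebf2, the transcription factor that drives these genes, and Insig1, its retention factor, did not pass (0.22, adjusted p = 0.196 and -0.29, adjusted p = 0.201), and Insig1 did with the replicate block, at an adjusted p of 0.0398.

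The 2 sterol exporters went opposite ways. Abca1 was at 236, 179 and 224 CPM in ISO and at 336, 354 and 484 CPM in Lip+ISO (log2 fold change 0.88 ± 0.16, adjusted p = 0.00356). Abcg1 was at 133, 136 and 147 CPM in ISO and at 50.5, 69.5 and 52.55 CPM in Lip+ISO (log2 fold change -1.27 ± 0.13, adjusted p = 5.50e-05). Abca1 thus rose and Abcg1 fell, with no overlap in either. Srebf1, the factor of fatty acid synthesis, overlaps Rai1 in the table and fell (-0.88, adjusted p = 5.50e-05), while Dgat1, which makes triglyceride, rose (0.65, adjusted p = 0.00923), with an adjusted p of 0.0517 without ISO replicate 2. The adjusted p of Dgat1 was 0.106 without replicate 2 and 0.0951 without replicate 3. In the list of fatty acid and triglyceride synthesis 5 of 27 members were lower (18.5%) and 3 higher (11.1%), with a median of 0.08. Over all tested genes the shares were 4.59% and 4.36%.

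The sequence upstream of these genes was read as well. The cAMP response element, whose 8 letters TGACGTCA read the same on both strands, is the site that CREB factors bind. It was searched for in the 250 bases before the start of each of the 13543 tested genes in mm9, and 2.7% held it, against 0.617% of the genes called lower and 2.8% of those called higher. Of the 59 genes of the fixed list and the largest changes, 3 held it, and they are shown because CREB factors are the route from protein kinase A to the nucleus. Pmvk (chr3:89262790-89263039, plus strand), Ppargc1a (chr5:51945161-51945410, minus strand) and Areg (chr5:91568391-91568640, plus strand) are given 5′ to 3′ as 250 bases each, from the mm9 genome, with the element in capitals.
Pmvk: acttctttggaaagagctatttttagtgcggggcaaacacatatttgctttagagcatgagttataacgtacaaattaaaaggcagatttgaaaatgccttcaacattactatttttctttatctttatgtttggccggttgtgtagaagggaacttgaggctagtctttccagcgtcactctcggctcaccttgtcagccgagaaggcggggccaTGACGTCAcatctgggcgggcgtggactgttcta
Ppargc1a: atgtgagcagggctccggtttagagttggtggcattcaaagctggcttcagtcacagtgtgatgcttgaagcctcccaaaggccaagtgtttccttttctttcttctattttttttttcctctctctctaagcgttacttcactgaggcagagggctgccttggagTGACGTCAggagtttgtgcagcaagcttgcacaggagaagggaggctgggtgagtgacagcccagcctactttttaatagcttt
Areg: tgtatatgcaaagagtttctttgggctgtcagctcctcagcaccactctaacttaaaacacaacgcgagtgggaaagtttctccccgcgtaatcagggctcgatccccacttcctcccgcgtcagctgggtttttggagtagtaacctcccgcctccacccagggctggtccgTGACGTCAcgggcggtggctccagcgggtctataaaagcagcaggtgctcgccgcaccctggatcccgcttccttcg

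The element ended 26 bases before the start of Pmvk, 76 before that of Ppargc1a and 69 before that of Areg. Of these genes Pmvk rose, while Ppargc1a and Areg did not pass. A match is a description of the letters and no evidence that a factor was bound.

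Other elements were sought on both strands of the same windows. The sterol response element, as TCACNCCAC with N for any base, lay before 0.93% of all tested genes, before 0 of the 162 called lower, 0 of the 107 called higher and 0 of the 14 sterol genes that rose. The DR1 element, the kind that PPARs bind, lay before 0.273% of all genes, 0.617% of those called lower and 0% of those called higher. The AP-1 element, as TGANTCA, lay before 4.29% of all genes, 7.41% of those called lower and 7.48% of those called higher. The E-box CACGTG was found before 8.31%, 9.26% and 8.41%, the NR4A element AAAGGTCA before 0.812%, 1.85% and 0.935%, the C/EBP-ATF element TGATGNAA before 1.85%, 1.85% and 3.74%, and the EGR element GCGGGGGCG before 5.18%, 4.94% and 4.67%, in the same order. The CArG box of serum response factor was found before 1.1%, 2.47% and 2.8%, and the heat shock element GAANNTTC before 4.84%, 1.85% and 4.67%. Where no match was found, these letters were absent from the window, and nothing follows from that about the factor. These shares were not tested.

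The lipases themselves were measured too. Pnpla2, which encodes the blocked ATGL, did not pass (0.35, adjusted p = 0.201), and neither did its coactivator Abhd5 (0.20, adjusted p = 0.263). Lipe, which encodes HSL, was at 2858, 2133 and 2022 CPM in ISO and 1407, 1471 and 1598 CPM in Lip+ISO (log2 fold change -0.65 ± 0.15, adjusted p = 0.0165), and its adjusted p was 0.0524 without ISO replicate 1 and also 0.0524 without Lip+ISO replicate 2. The adjusted p of Lipe was 0.125 without replicate 2 and 0.0713 without replicate 3. Of 10 receptors that sense metabolites or hold lipolysis back, 3 were lower (30%) and 0 higher, against 4.59% and 4.36% of all tested genes. The 3 lower receptors were Hcar2, of β-hydroxybutyrate (-1.25, adjusted p = 0.000408), Ffar4, of long-chain fatty acids (-0.98, adjusted p = 0.00422), and Sucnr1, of succinate (-0.78, adjusted p = 0.00828). Rasd1, a Ras-related brake on adenylyl cyclase that overlaps Med9 in the table, was lower as well (-0.79, adjusted p = 0.0138).

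Several of the largest rises lay outside the pathway lists. Vdr was at 361, 301 and 325 CPM in ISO and at 1184, 1051 and 1328 CPM in Lip+ISO (log2 fold change 1.85 ± 0.22, adjusted p = 0.000192), and it encodes the vitamin D receptor. Cd55 was at 97.7, 88.9 and 124 CPM in ISO and at 305, 368 and 573 CPM in Lip+ISO (log2 fold change 2.00 ± 0.20, adjusted p = 6.29e-05), and it encodes a complement regulator. Ppp1r3c was at 17.3, 16.6 and 14.2 CPM in ISO and at 75.4, 63.2 and 54.5 CPM in Lip+ISO (log2 fold change 2.01 ± 0.17, adjusted p = 2.09e-05), and its product brings a phosphatase to glycogen. Vdr and Cd55 were far lower in DMSO than in ISO, whereas Ppp1r3c was at 17.9, 11.9 and 13.55 CPM in DMSO, which overlapped its ISO libraries.

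Xrcc2, of DNA repair, was at 9.19, 8.31 and 7.01 CPM in DMSO, 10.35, 11.2 and 12.6 CPM in ISO, 8.14, 7.73 and 7.53 CPM in Lip and 45.2, 30.3 and 57.75 CPM in Lip+ISO (log2 fold change 1.96 ± 0.19, adjusted p = 5.50e-05). Cyp2ab1, a cytochrome P450 gene, was at 2.995, 5.99 and 6.79 CPM in ISO and 18.8, 32.02 and 42.9 CPM in Lip+ISO (log2 fold change 2.56 ± 0.34, adjusted p = 0.000481). Wnt9b, a Wnt ligand, was at 10.4, 5.00 and 4.63 CPM in ISO and 32.8, 37.9 and 55.96 CPM in Lip+ISO (log2 fold change 2.67 ± 0.29, adjusted p = 0.000106), and a second ligand, Wnt11, also rose (1.32, adjusted p = 0.00585). Among 21 Wnt genes 3 were higher (14.3%) and 1 lower (4.76%), against 4.36% and 4.59% of all tested genes. The remaining members of the 12 largest rises were Fam131a, which overlaps Clcn2 in the table (2.18, adjusted p = 0.000576), Lrrn4cl (1.91, adjusted p = 0.000438), Gng4 (1.84, adjusted p = 0.000707) and 2010003K11Rik (1.83, adjusted p = 4.97e-05).

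Of the 24 unfolded protein response markers that the study lists, 4.17% were lower and 4.17% higher, near the 4.59% and 4.36% of all tested genes. These were 1 that was lower, Thbs1 (-1.17, adjusted p = 0.00252), and 1 higher, the cochaperone Dnaja4 (0.39, adjusted p = 0.0215), and the list median was -0.09. With the replicate block 4 were lower and 2 higher, against 1458 and 1149 of all 13543 tested genes in that fit. Dnaja4 no longer passed in 7 of the 15 leave-out fits, with adjusted p up to 0.149, among them those without ISO replicate 1, ISO replicate 2, ISO replicate 3 and Lip+ISO replicate 1. The stress factors Atf4 (-0.28, adjusted p = 0.186) and Ddit3, which overlaps Mars (-0.23, adjusted p = 0.558), and the chaperone Hspa5 (0.47, adjusted p = 0.196) did not pass, while with the replicate block Atf4 (adjusted p = 0.0458) and Hspa5 (adjusted p = 0.0019) did. Trib3, a target of ATF4, rose (log2 fold change 1.21 ± 0.11, adjusted p = 4.10e-05), at 171, 147 and 184 CPM in ISO and 446, 355 and 363 CPM in Lip+ISO, and so did the amino acid transporter Slc7a5 (0.88, adjusted p = 0.00259). The list of ATF4 and endoplasmic reticulum stress targets did not rise as a whole, with 2 of 26 members lower and 2 higher and a median of 0.11.

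Hsph1, a cytosolic chaperone, was at 250.3, 255 and 219 CPM in ISO and at 493, 547 and 675 CPM in Lip+ISO (log2 fold change 1.24 ± 0.13, adjusted p = 6.21e-05). In the heat shock list that holds it, 2 of 18 members were higher (11.1%) and 0 lower, against 4.36% and 4.59% of all tested genes. Socs3 was at 57.1, 48.1 and 48.5 CPM in ISO and at 180.1, 145 and 153 CPM in Lip+ISO (log2 fold change 1.64 ± 0.11, adjusted p = 2.32e-06), and its product curbs cytokine signalling. In the inflammatory list as a whole 2 of 26 members were higher (7.69%) and 1 lower (3.85%), against 4.36% and 4.59% of all tested genes. Klf3, a transcriptional repressor, rose (0.74, adjusted p = 0.000146).

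Of 31 collagens 7 were lower (22.6%) and 0 higher, against 4.59% and 4.36% of all tested genes. Their median was -0.39. With the replicate block 11 were lower and 1 higher, against 1458 and 1149 of all 13543 tested genes in that fit. Their summed level was 6970 to 8390 CPM in DMSO, 9850 to 11500 CPM in ISO and 7360 to 10200 CPM in Lip+ISO. Col1a2 was at 172, 237 and 214 CPM in ISO and at 105, 128 and 112 CPM in Lip+ISO (log2 fold change -0.86 ± 0.16, adjusted p = 0.00596). Col3a1 was at 226, 273 and 301 CPM in ISO and at 117, 178 and 153 CPM in Lip+ISO (log2 fold change -0.84 ± 0.18, adjusted p = 0.0131), and its adjusted p was 0.0606 without ISO replicate 3. Col1a1 (-0.73, adjusted p = 0.0237) and the fibroblast marker Pdgfra (-1.03, adjusted p = 0.0152) no longer passed without ISO replicate 2, ISO replicate 3 or Lip+ISO replicate 3, with adjusted p up to 0.0915, and Col1a1 also without Lip+ISO replicate 2. Without replicate 3 the adjusted p was 0.142 for Col1a1, 0.142 for Col3a1 and 0.114 for Pdgfra. Cldn5, an endothelial junction gene, was at 87.2, 132 and 84.2 CPM in ISO and 14.7, 43.8 and 29.35 CPM in Lip+ISO (log2 fold change -1.79 ± 0.47, adjusted p = 0.0322), and its adjusted p was 0.12, 0.0615, 0.079 and 0.0954 without ISO replicate 2, ISO replicate 3, Lip+ISO replicate 1 and Lip+ISO replicate 3. The adjusted p of Cldn5 was 0.0638 without replicate 1 and 0.212 without replicate 3. The summed fibroblast level did not overlap between ISO and Lip+ISO, and its part in the lower collagens was not tested.

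**Figure D3:**
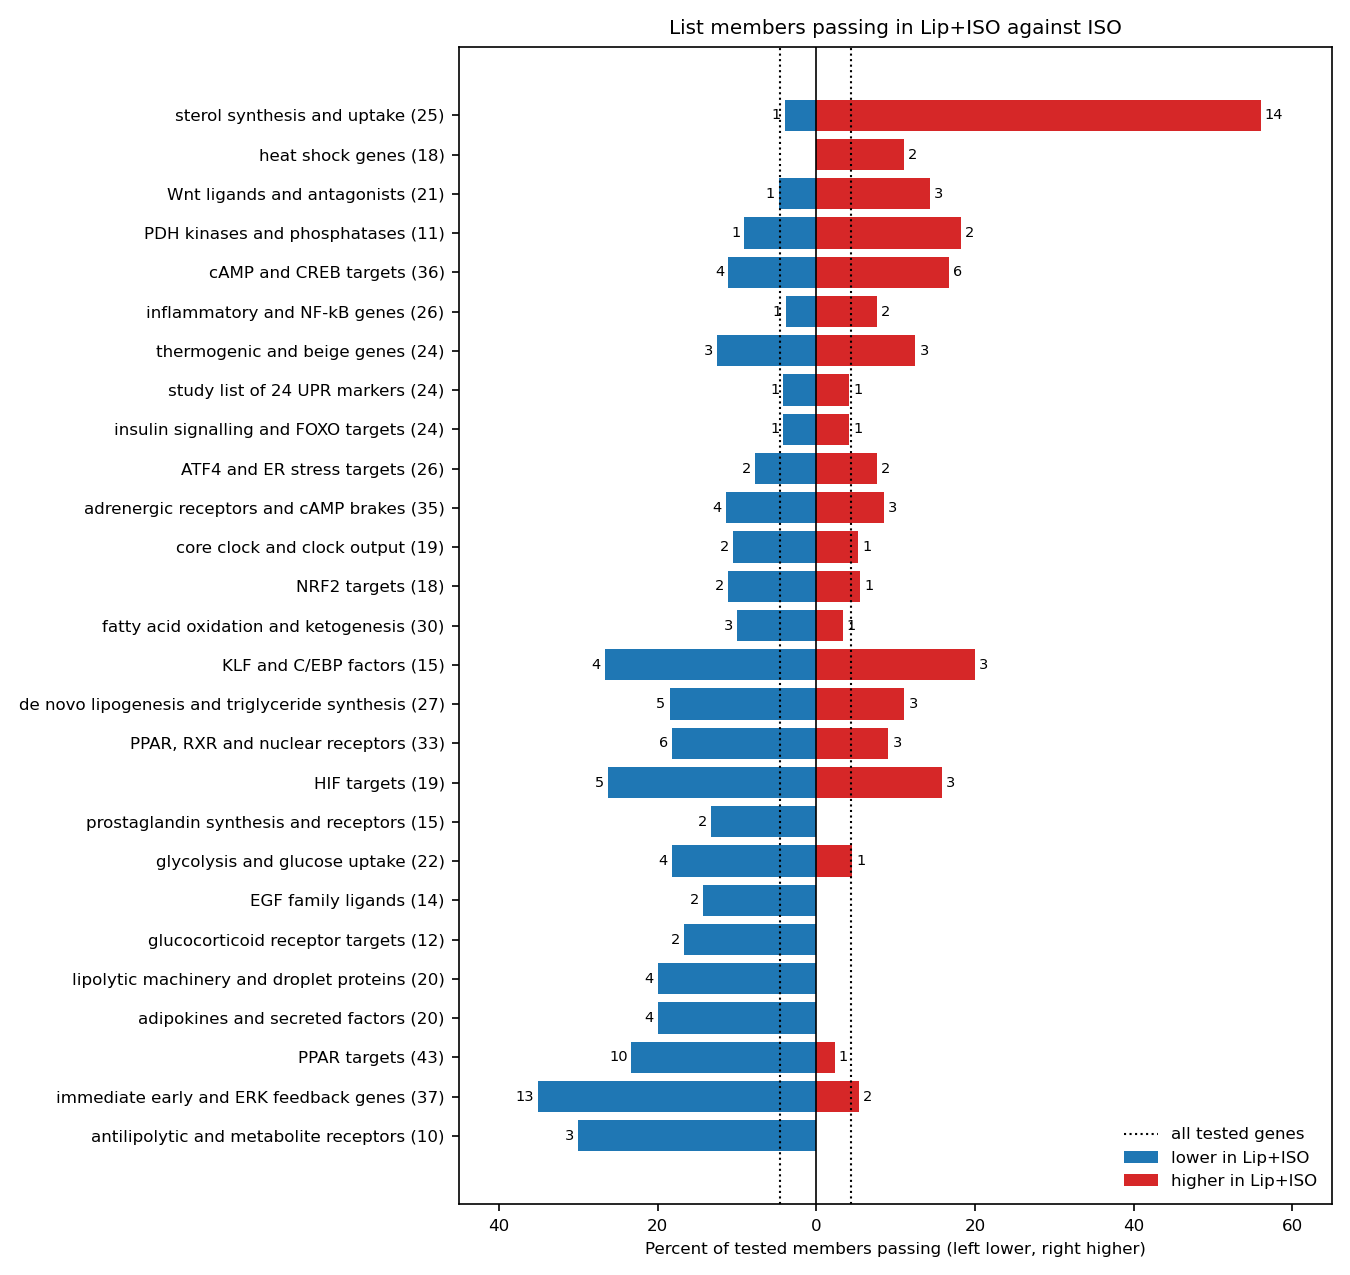
Share of tested members that passed as lower (blue, left) or higher (red, right) in Lip+ISO against ISO for the 27 pathway lists with 10 or more tested members, whose number is in parentheses, with counts at the bar ends and dotted lines at the shares of all tested genes. The sterol list has the longest bar on the right, at 56%, and the immediate early list the longest on the left, at 35.1%. The lists were chosen with earlier results of these data known, so their order is a description.

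Lists of housekeeping machinery held few passing genes. By edgeR, 0 of 77 mitochondrial ribosomal proteins and 0 of 87 cytosolic ribosomal proteins passed, with medians of 0.01 and -0.09. At an unadjusted p under 0.05, 2 of the former were higher and 5 of the latter lower, while 0 and 2 passed by DESeq2 and 0 of either by limma-voom. In addition, 1 of 39 proteasome subunits was higher (2.56%), against 4.36% of all tested genes. The study also defined 4 clusters of ISO-responsive genes in brown adipocytes, which are other libraries. Cluster C1 held 144 tested genes here, of which 47 were lower (32.6%) and 4 higher, with a median of -0.36. Cluster C2 held 101, of which 9 were lower and 28 higher (27.7%), with a median of 0.24. In C3, 34 of 185 were lower (18.4%) and 14 higher (7.57%), and in C4, 21 of 174 were lower (12.1%) and 26 higher (14.9%). Over all tested genes the shares were 4.59% lower and 4.36% higher.

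Without ISO, the inhibitors changed far less. Between Lip and DMSO, 7 genes passed (0.0517%), 6 of them lower, or 27 with the replicate block, and 582 had an unadjusted p under 0.05, against 3230 between Lip+ISO and ISO. The count was 0 without DMSO replicate 2, DMSO replicate 3 or Lip replicate 3, and 15 without Lip+ISO replicate 1. These comparisons share no library. Of the 162 genes called lower with ISO, 121 (74.7%) also had a negative fold change without it, against 49.4% of all tested genes, with a median of -0.17. Of the 107 called higher, 81 (75.7%) had a positive one, against 50.6% of all, with a median of 0.16. Sizes are not compared, since these genes were chosen for a large difference with ISO.

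The difference between the inhibitor effects with and without ISO was itself tested. It passed for 98 genes in the negative direction (0.724%) and 122 in the positive (0.901%), or 471 and 427 with the replicate block. Without the block they included 44 of the 162 genes called lower and 53 of the 107 called higher. Called genes were chosen for a large effect with ISO, which is part of this difference, so these counts are no independent test. Pdk4 fell without ISO too, by a log2 fold change of -1.66 (adjusted p = 0.0142), as did Acot4, -1.13 (adjusted p = 0.0142), Spry4, -0.73 (adjusted p = 0.0142), and Rasd1, -1.13 (adjusted p = 0.0331). The other 3 that passed were Insig1, which was lower, Mtus1, which was lower, and Atoh8, which was higher, and these were named after their values were seen. Egr1, in contrast, had -0.49 (adjusted p = 0.568), Nr1d1 -0.16 (adjusted p = 1), Pmvk -0.07 (adjusted p = 1) and Dio2 0.42 (adjusted p = 1) without ISO, and none of these passed there.

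**Figure D4:**
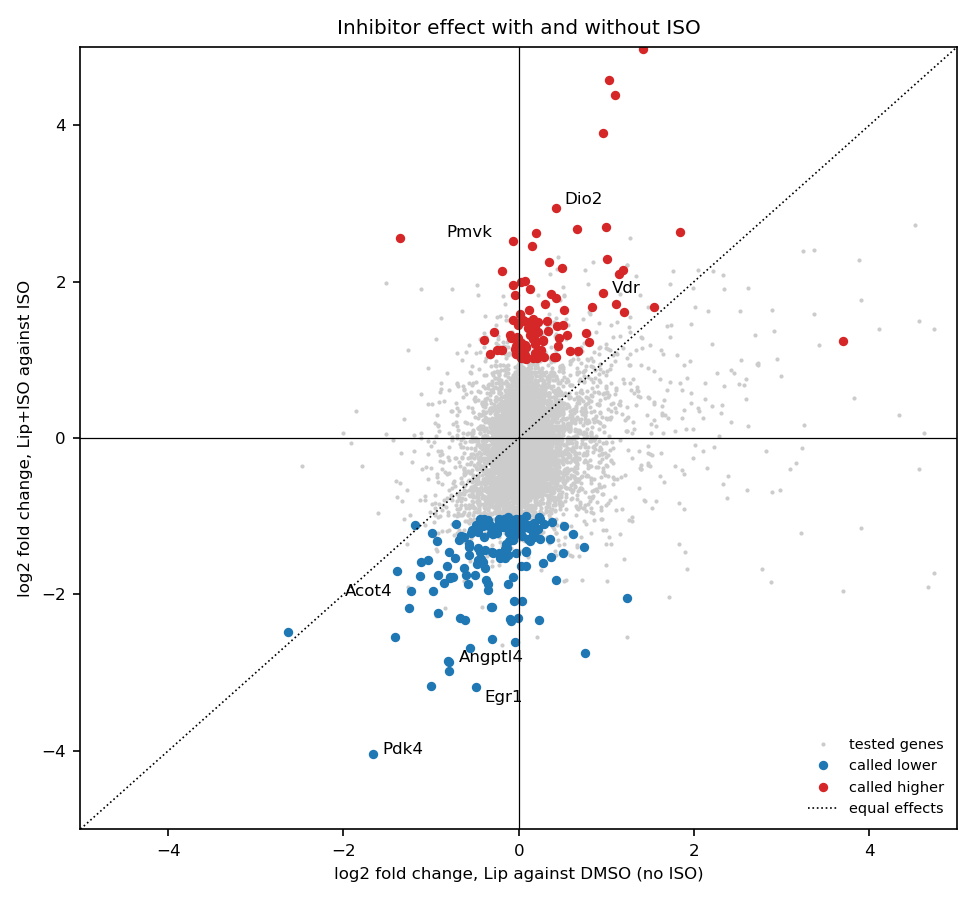
Log2 fold change of Lip+ISO against ISO (vertical) and of Lip against DMSO (horizontal) for the tested genes, of which 4 lie outside the axes. The 162 genes called lower (blue) and 107 called higher (red) were chosen by their vertical position, and the dotted line marks equal effects. Of the blue genes 121 lie left of 0, and of the red genes 81 lie right of it.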

How the data were processed

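Total RNA of floated white adipocytes was prepared with TRIzol and sequenced as 12 TruSeq libraries, 3 per group. Per the labels and the study's methods, the authors aligned reads to mm9 with STAR 2.4.2a, kept only 1 read per position and read length with HOMER, which can compress the counts of very abundant transcripts, and counted reads per gene with iRNA-seq. The deposited values are raw counts per RefSeq gene, not normalized, in 1 table with 20295 genes. No column of single-sample values was left unused (0 columns). The table also holds gene coordinates and lengths. Totals were 22632220 to 43707557 counts, and a level of 3 counts is given as the limit that counting error sets.

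Counts were analysed in R 4.3.3 with edgeR 4.0.16: filterByExpr kept 13543 genes, TMM scaled the libraries, and 1 model over all 12 libraries gave the quasi-likelihood F test for Lip+ISO against ISO, Lip against DMSO and the difference of these, two-sided, with Benjamini-Hochberg adjustment. Genes passed where the adjusted p was 0.05 or less, and passing genes were called at 1 log2 unit or more. CPM were computed on TMM-scaled totals, and log2 fold changes are those of the fitted edgeR model. A prior count of 2 was used only for the log2 CPM from which correlations between libraries were computed. No pair of libraries was identical. The scripts were tested on simulated data.

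Named genes are 40 fixed by name, the 12 largest changes in each direction among called genes with a mean of 5 CPM or more in the higher group and no overlap, and up to 4 passing members of each list, or the 2 with the highest level where none passed. The genes and lists were chosen with earlier results of these data known. The 4 brown adipocyte clusters and the 24 stress markers are the study's own lists. Alternatives were other size factors (RLE, library totals), filters (none, 1 CPM in 3 libraries), tools (DESeq2 1.42.0, limma 3.58.1), the 6 libraries alone, a replicate block and fits without 1 library or replicate number. Promoter sequences are from the mm9 genome. A few genes that the rule names are not reported here.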

Additional observations from a re-analysis of the deposited data

Results flagged for a closer look

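For 36 of 102 genes named in the text, the inhibitor effect with ISO differed from that without ISO by edgeR's test of the difference, which is what marked them. Over all tested genes 0.724% passed in the negative direction and 0.901% in the positive. Many of the named genes were chosen for their effect with ISO, which is part of this difference. Their share is therefore no independent test. The difference, in log2 units and as the effect with ISO minus the effect without it, was negative for 15 genes and positive for 21.

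In the negative direction it was -2.69 for Egr1, -2.57 for Rgs16, -2.55 for Has2, -2.38 for Pdk4, -2.26 for Arc, -2.19 for Pfkfb3, -2.12 for Ccrn4l and -2.06 for Angptl4. The remaining negative differences were -1.72 for Bcar3, -1.39 for Nr1d1, -1.39 for Myc, -1.08 for Slc2a1, -1.03 for Col1a2, -0.87 for Abcg1 and -0.8 for Spry4. Genes of immediate early signalling, glycolysis and fatty acid handling stand among them.

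In the positive direction the differences under 1 log2 unit were 0.58 for Pparg, 0.6 for Mvd, 0.69 for Klf3, 0.88 for Mxi1, 0.91 for Cyp51 and 0.93 for Crem. Those of 1 log2 unit or more were 1.03 for Abca1, 1.08 for Hsd17b7, 1.12 for Mvk, 1.18 for Trib3, 1.25 for Hsph1, 1.31 for Pde4d, 1.32 for Cry2, 1.52 for Socs3, 1.78 for Lrrn4cl, 1.87 for 2010003K11Rik, 1.94 for Ppp1r3c, 1.97 for Cd55, 2.03 for Xrcc2, 2.52 for Dio2 and 2.59 for Pmvk. Sterol synthesis genes, the phosphodiesterase gene Pde4d and the CREB family gene Crem, and the chaperone gene Hsph1 were found here. No group held 4 or more libraries, so single libraries were not screened against their own group.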

How the results depend on the processing

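The counts of genes called lower and higher stayed within 1.5 times 162 and 107 under every setting without left-out libraries. The counts of passing genes moved more. With only the 6 ISO and Lip+ISO libraries, 395 were lower and 349 higher, a fit with fewer residual degrees of freedom. DESeq2 gave 903 higher, 57 for Lip against DMSO, and 242 negative and 337 positive differences of the inhibitor effects, and without a filter 14 genes passed for Lip against DMSO. The cause of the other moves was not tested.

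Leaving out 1 library or 1 replicate number gave 212 to 601 lower and 167 to 605 higher, with 80 to 182 called lower and 75 to 129 called higher. Passing lower genes were 393 without ISO replicate 2, 343 without ISO replicate 3 and 388 without Lip+ISO replicate 3, and passing higher genes 341 without ISO replicate 2 and 392 without Lip+ISO replicate 3. Lip against DMSO had 0 to 15 genes, with 0 to 4 without any 1 of the DMSO or Lip libraries or ISO replicate 1 or 3 and 11 without Lip+ISO replicate 3, and the differences 9 to 151 negative and 6 to 177 positive. Among single libraries, the negative differences numbered 50 to 64 without DMSO replicate 1 or 3, ISO replicate 2 or 3, Lip replicate 1 or 2 or Lip+ISO replicate 3 and 151 without Lip+ISO replicate 1, and the positive ones 63 to 74 without DMSO replicate 3, ISO replicate 2 or 3 or Lip replicate 2. The share of called lower genes below 0 without ISO ranged over 60.8 to 87.5%, and that of called higher genes above 0 over 64.9 to 78.9%. Lower members ranged over 6 to 10 of the PPAR targets, 8 to 16 of the immediate early genes and 17 to 51 of C1, with 28 in C1 without ISO replicate 3. Higher members ranged over 8 to 15 of the sterol genes and 16 to 28 of C2. The share of calls that were higher was 39.8%, and 49.1% without ISO replicate 3. Of 82 named genes that passed, 49 passed in each of the 15 fits. Acot2, Plin2, Hilpda, Ppara, Pparg, Ppargc1b, Slc16a1, Bdkrb2 and Hs3st1 failed to pass only in fits without a replicate number. So did Rasd1, Ffar4, Sucnr1, Wnt11, Mvd, Idi1, Abca1 and Col1a2. The highest adjusted p of these genes was 0.162, for Slc16a1 without replicate 2. The sign turned for Adrb3, main value 0.04, at -0.14 and -0.15 without ISO replicate 2 and Lip+ISO replicate 3, and -0.09 and -0.17 without replicates 2 and 3, with 0.39 without replicate 1. It turned for Lep, main value 0.04, at -0.03, -0.17 and -0.07 without ISO replicate 2, ISO replicate 3 and Lip+ISO replicate 2, and -0.14 without replicate 2 and without replicate 3, with 0.46 without replicate 1.

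With a replicate block over 12 libraries 1458 genes were lower and 1149 higher, 27 passed for Lip against DMSO, and the differences were 471 negative and 427 positive. With the block over the 6 libraries 757 were lower. Same-numbered ISO and Lip+ISO libraries deviated together with correlations of 0.10, 0.31 and 0.04, and differently numbered ones with -0.19 to 0.05. Lip+ISO replicate 3 correlated slightly more with ISO replicate 1 (0.05) than with ISO replicate 3. The labels do not say whether equal numbers mark the same experiment, and the fit without the block was kept as the main one. In the other 5 pairs of groups all same-numbered libraries correlated at 0.12 to 0.37, and those of DMSO and Lip at 0.34, 0.37 and 0.20. The block over 12 libraries ended no call of a named gene and added 7, and it moved many of the smaller list counts by over 1.5 times.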

Other observations

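Some gene groups lay outside the comparisons described above, each set here beside 4.59% lower and 4.36% higher of all tested genes. Among 15 KLF and C/EBP factors, which direct adipocyte differentiation, 4 were lower and 3 higher, with a median log2 fold change of -0.06. Among 20 adipokines and secreted factors 4 were lower and 0 higher, with a median of -0.02, and among 20 genes of the lipolytic machinery and droplet proteins 4 were lower and 0 higher, with a median of -0.10. Prostaglandin synthesis and receptor genes had 2 of 15 lower and 0 higher, with a median of -0.32, and glucocorticoid receptor targets 2 of 12 lower and 0 higher, with a median of -0.10.

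NRF2 targets, which answer oxidative stress, had 2 of 18 lower and 1 higher, with a median of 0.18, and ATF4 and endoplasmic reticulum stress targets 2 of 26 lower and 2 higher, with a median of 0.11. Genes of insulin signalling and FOXO targets had 1 of 24 lower and 1 higher. Adrenergic receptors and brakes on cyclic AMP had 4 of 35 lower and 3 higher, with a median of -0.01, and pyruvate dehydrogenase kinases and phosphatases 1 of 11 lower and 2 higher. Mitochondrial carriers of the Slc25 family had 1 of 39 lower and 2 higher, and cytochrome P450 genes 1 of 32 lower and 1 higher. Of 6 targets of the aryl hydrocarbon receptor, 0 passed by edgeR, with 1 lower at an unadjusted p under 0.05 and 0 by DESeq2 or limma-voom. With the replicate block, 12 adrenergic receptors and brakes, 8 lipolytic and droplet genes, 5 prostaglandin genes and 5 glucocorticoid receptor targets were lower, and the insulin and FOXO list had 5 lower and 4 higher and the ATF4 and endoplasmic reticulum stress list 6 lower and 7 higher. In that fit 1458 of all 13543 tested genes were lower and 1149 higher, so these counts are not to be set beside the shares given above.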
